A study of Homo sapiens with 2 samples.

Results

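Oxidative phosphorylation genes encode the machinery that makes ATP in mitochondria, and 99 of the 36601 genes in the deposited matrix were studied here. They were chosen by symbol: mitochondrially encoded subunits (MT-ND, MT-CO, MT-ATP and MT-CYB genes) and nuclear genes whose symbols begin as those of complex I (NDUFA, NDUFB, NDUFC, NDUFS and NDUFV), complex III (UQCR), complex IV (COX4 to COX8) or complex V (ATP5). The mitochondrial genome supplied 13 of them and the nucleus 86, of which 83 encode proteins and 3 are antisense or divergent RNAs caught by their names (NDUFB2-AS1, NDUFV2-AS1 and NDUFA6-DT). By symbol, complex I held 7 mitochondrial and 41 nuclear genes, complex III 1 and 9, complex IV 3 and 17, and complex V 2 and 19.

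The cells came from OVCAR5, a human ovarian carcinoma line, grown as tumours in NSG-b2m-/- mice, which lack lymphocytes and MHC class I. Cells of 5 tumours were digested, cultured with or without cytokines for 6 h, tagged with hashtag antibodies (antibodies that carry a DNA barcode), pooled, and sorted for cyan fluorescent protein, which marks bystander tumour cells. The labels name 5 unstimulated entries, 5 given the inflammatory cytokine TNF alpha (TNF below), whose receptor activates NF-kB, at 10 ng/ml, and 5 given IFN-gamma, an interferon made by T cells, at 100 ng/ml with TNF at 10 ng/ml. All groups thus share the line, the host, the culture and the sort, and a single 10x Genomics 3' gene expression library with its hashtag library held every cell.

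No label says which hashtags carried which treatment. The 15 hashtag pairs were therefore placed into 3 sets of 5, called unstimulated-like, TNF-like and IFN-gamma+TNF-like, inferred from their response genes. As a description of what placed them, IRF1, an early IFN-gamma target, lay at 0.738 to 1.08 UMIs per 10000 in the unstimulated-like set, 1.84 to 4.01 in the TNF-like set and 36.6 to 42.6 in the IFN-gamma+TNF-like set. NFKBIA, the NF-kB inhibitor that NF-kB itself induces, lay at 1.12 to 1.47, 10.5 to 15.9 and 16.6 to 20.1. Every p-value below measures association with an inferred set, over hashed samples that may be technical replicates, and is not a test of a labelled treatment.

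Of 5269 barcodes, 3538 were kept as cells, having 1000 genes or more and no more than 20% mitochondrial counts, and 3144 of these (88.9%) carried 1 clear pair of hashtags. The hashed samples held 49 to 630 cells and 582102 to 7324691 UMIs (unique molecular identifiers, counts of single RNA molecules). Median mitochondrial shares per sample ran from 12.2% to 14.7%, but the limit of 20% bounds this share from above. Epithelial markers were detected for 10 of 10 genes, at a summed 40.3 to 88.4 UMIs per 10000, while 7 of 8 T or NK cell markers were at 0 throughout. The epithelial sum was 40.3 to 47.9 in the IFN-gamma+TNF-like set and 72.7 to 88.4 in the unstimulated-like set, and its part in the results below was not tested. Myeloid markers summed to 0.292 to 0.593 in all samples, with FCGR3A at 0.

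The respiratory chain passes electrons from NADH through complex I, or from succinate through complex II, to ubiquinone, then through complex III and cytochrome c to complex IV, which reduces oxygen. The proton gradient built on the way drives complex V, the ATP synthase. Mitochondrial DNA encodes core subunits of every proton-handling complex, transcribed as long polycistronic RNAs by POLRMT with TFAM, while nuclear genes supply the remaining subunits, assembly factors and all the proteins of the mitochondrial ribosome. Inflammatory signals are known to remodel this system in immune and epithelial cells.

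Promoter sequence is shown for 4 nuclear genes whose levels set the sets apart below: the complex I subunits NDUFA9 and NDUFV2, the complex II subunit SDHA and the copper chaperone COX17. NRF1, nuclear respiratory factor 1, is known to act on many genes of this system. Each stretch lies upstream of the gene model and is written 5′ to 3′ on the gene's strand from RefSeq (GRCh38.p14), with capitals marking the NRF1 core (GCGCA, any base, then GCGC) on either strand. The positions are chr12:4648864-4649094 (plus strand) for NDUFA9, chr18:9102449-9102629 (plus strand) for NDUFV2, chr5:218070-218240 (plus strand) for SDHA and chr3:119677455-119677656 (minus strand) for COX17.
NDUFA9: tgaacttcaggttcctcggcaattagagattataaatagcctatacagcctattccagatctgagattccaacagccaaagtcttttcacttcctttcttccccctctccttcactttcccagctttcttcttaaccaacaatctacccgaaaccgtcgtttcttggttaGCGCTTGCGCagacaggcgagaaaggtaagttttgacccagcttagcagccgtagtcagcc
NDUFV2: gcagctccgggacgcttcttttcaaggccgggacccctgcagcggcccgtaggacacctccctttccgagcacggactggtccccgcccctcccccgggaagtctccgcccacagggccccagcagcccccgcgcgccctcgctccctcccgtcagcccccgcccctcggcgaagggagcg
SDHA: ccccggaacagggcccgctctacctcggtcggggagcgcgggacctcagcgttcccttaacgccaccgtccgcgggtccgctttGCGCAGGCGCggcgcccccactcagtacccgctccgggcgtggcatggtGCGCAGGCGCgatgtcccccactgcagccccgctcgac
COX17: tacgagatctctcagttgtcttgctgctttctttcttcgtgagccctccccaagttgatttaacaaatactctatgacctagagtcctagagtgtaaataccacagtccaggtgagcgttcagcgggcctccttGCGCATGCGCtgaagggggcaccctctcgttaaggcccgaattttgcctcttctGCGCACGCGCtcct
The NDUFA9 stretch held 1 core, those of SDHA and COX17 held 2 each, and that of NDUFV2 held 0. In windows of 250 bases upstream of the RefSeq start, the core was present for 12 of 67 members with a window (17.9%) and for 6.20% of 27305 genes. Of the 9 called nuclear members with a window, 1 (NDUFA9) held it. SDHA and COX17 are not members, and the 4 genes shown were picked by their differences between the sets. The ETS core CCGGAAG was present for 15 of 67 (22.4%, against 10.2% of all genes). The IFN-gamma activated site TTCNNNGAA was present for 3 of 67 (4.48%, against 8.09%), and the interferon-stimulated response element (GAAA, any 2 bases, then GAAA) for 0 of 67 (against 3.71%). Both strands were searched, a match is a description of letters only, and the 3 antisense or divergent genes were not treated apart.

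Mitochondrially encoded genes were the most abundant members. Levels are given as UMIs per 10000 UMIs, and since 3' counting takes about 1 count per transcript they are not divided by length. Pooled over the 15 samples, MT-CO2, a core subunit of complex IV, stood at 225.6, MT-ATP6, a proton channel subunit of complex V, at 205, MT-CO3 at 200.4 and MT-CO1 at 189.7. MT-CYB, the cytochrome b of complex III, followed at 134, and the complex I subunits MT-ND4, MT-ND3, MT-ND1, MT-ND2 and MT-ND5 ran from 125 down to 31.7. These 10 genes filled ranks 1 to 10 of the members. The other 3 were far lower: MT-ND4L stood at 2.93, MT-ND6, the only member transcribed from the other mitochondrial strand, at 1.49, and MT-ATP8 at 1.12. MT-ND4L overlaps MT-ND4 and MT-ATP8 overlaps MT-ATP6 on the same strand, so their split of reads is uncertain.

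Among nuclear genes the levels were lower than those of the leading mitochondrially encoded genes, and ranged widely. ATP5F1E, the epsilon subunit of ATP synthase, led at 8.39 per 10000, followed by NDUFA4 at 7.28, NDUFA13 at 6.03, ATP5MC3, a membrane ring subunit, at 5.62, and NDUFV2 at 5.53. NDUFA4 carries a complex I name but is now known as a complex IV subunit. The lowest gene that entered the tests was NDUFA3 at 0.397. Named pseudogene copies exist for 55 of the 99 members, so that counts for those may be shared with a copy.

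Isoforms known from other tissues had few or no UMIs. COX7A1 and COX6A2, the heart and muscle forms of complex IV subunits, and COX7B2 had 0 UMIs. At 5000 UMIs a cell this allows up to 0.126% of the 2928 thinned cells to hold a UMI (exact binomial, 95%), which does not limit the share of cells that express these genes. COX4I2, the lung and hypoxia form, had 1 UMI, against 19535 for its common form COX4I1. COX8C had 4, COX6B2 25 and ATP5MGL 16 UMIs. NDUFA4L2, a hypoxia-induced paralog of NDUFA4, had 91 UMIs and was seen in 23 of 2928 thinned cells (0.786%), against 0 cells for the T cell gene CD3D. UQCRHL, a near copy of UQCRH, had 163 UMIs against 13992, and the 2 may share reads. These 6 genes, the 3 without UMIs and the antisense RNAs NDUFV2-AS1 (157), NDUFA6-DT (26) and NDUFB2-AS1 (11) were too low to test. That left 87 tested members of 9636 tested genes.

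**Figure D1:**
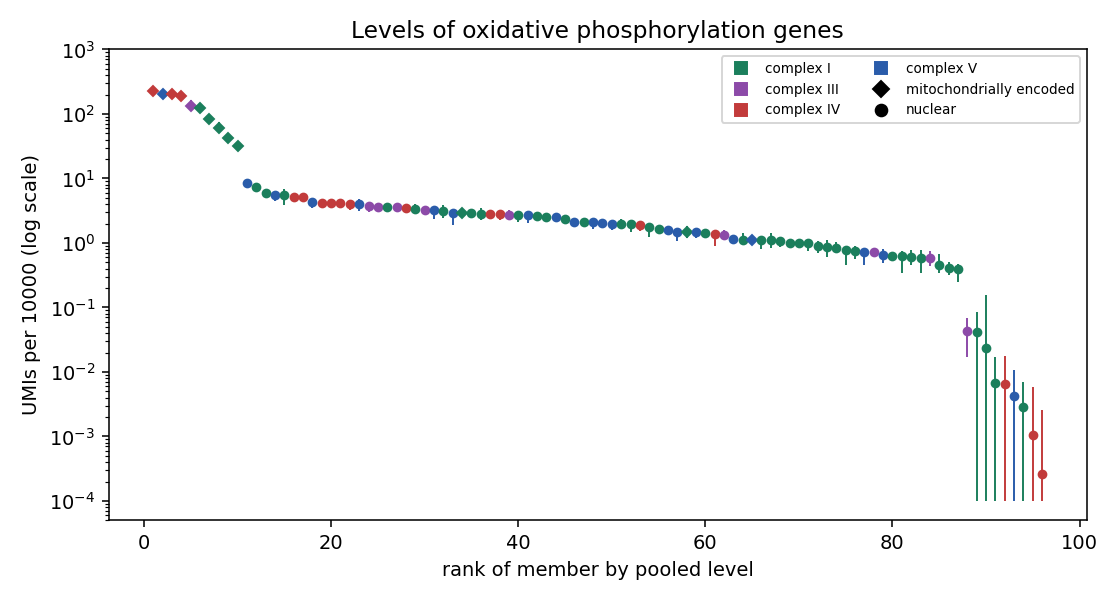
Pooled level of each of the 96 members with a UMI against its rank, in UMIs per 10000 on a log axis, with bars from the lowest to the highest hashed sample. Bars that reach a sample at 0 are cut a little above the foot of the axis, and that end is not a measured level. The 10 most abundant mitochondrially encoded genes lie above every nuclear gene, and the untested genes form the drop at the right.

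The mitochondrially encoded sum was a similar share of all UMIs in the 3 sets. In the unstimulated-like set the 13 genes made up 12.8%, 12.8%, 14.2%, 13.6% and 12.96% of UMIs (HTO2+HTO5, HTO2+HTO8, HTO3+HTO7, HTO4+HTO7 and HTO4+HTO10). In the TNF-like set they made up 12.0%, 12.9%, 13.3%, 13.5% and 13.4% (HTO2+HTO6, HTO2+HTO10, HTO3+HTO5, HTO3+HTO8 and HTO4+HTO8). The IFN-gamma+TNF-like set had 12.6%, 13.3%, 12.9%, 13.5% and 13.3% (HTO2+HTO7, HTO3+HTO6, HTO3+HTO9, HTO4+HTO6 and HTO4+HTO9). The 3 ranges overlapped, although HTO3+HTO7 and HTO4+HTO7 of the unstimulated-like set lay above every sample of the other sets and HTO2+HTO6 of the TNF-like set below every other sample. The limit of 20% on a cell's mitochondrial share constrains this sum, and it removed a median of 21.7%, 22.9% and 24.0% of barcodes in the 3 sets in that order.

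The nuclear sum was a lower share of all UMIs in the IFN-gamma+TNF-like set, where the typical gene was lower too. It was 1.78% to 1.89% of UMIs in the unstimulated-like set, 1.73% to 1.87% in the TNF-like set and 1.57% to 1.71% in the IFN-gamma+TNF-like set. The last range did not overlap either of the others, as a description of shares with no test. Against the unstimulated-like set, the median log2 fold change of the tested nuclear members was -0.18 under total UMIs, where the median of all tested genes was -0.24, and 0.05 with TMM (a scaling that centres the typical gene). Complex V showed the same order, with medians of 0.523%, 0.485% and 0.447%, and complex IV the narrowest gap, with 0.399%, 0.391% and 0.378%. In such sums, less RNA per cell and fewer cells of a kind cannot be told apart.

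**Figure D2:**
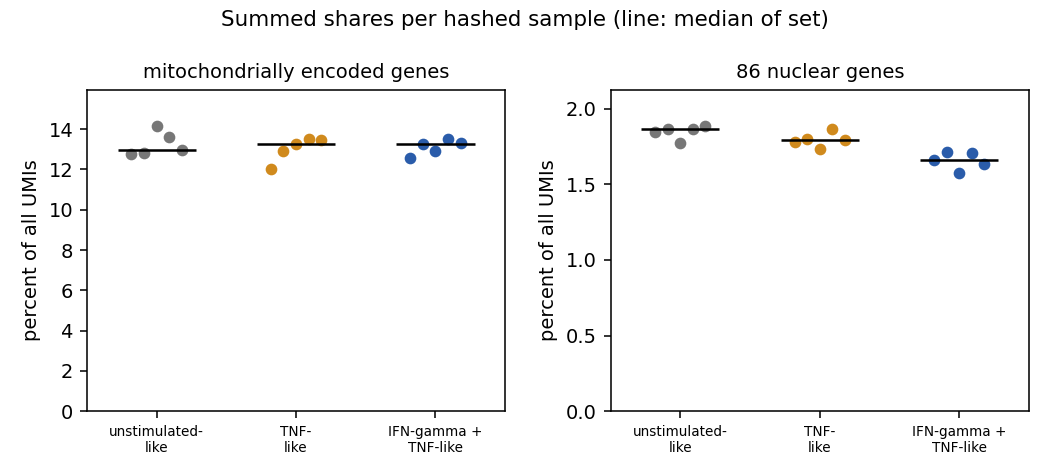
Summed share of the 13 mitochondrially encoded genes (left) and the 86 nuclear genes (right) in percent of all UMIs, 1 point per hashed sample in 3 inferred sets, with the median as a line. The mitochondrial shares overlap at 12.0% to 14.2%, and the nuclear shares of the IFN-gamma+TNF-like set (1.57% to 1.71%) lie below those of the other sets.

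Over thinned cells of 1 hashed sample, Spearman's rho between the mitochondrial and the nuclear sum ran from -0.21 to 0.22 with a median of -0.07, and 3 of 15 samples were above 0. Both sums share each cell's fixed total of 5000 UMIs, so a rise in one leaves less room for the other. The median cell held 13.1% mitochondrial and 1.72% nuclear UMIs of these genes (medians over samples).

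The choice of scale sets how the tests below read. edgeR's TMM method (trimmed mean of M values) centres the typical gene at 0, and its factors were 1.02 to 1.09 in the unstimulated-like set, 0.984 to 1.05 in the TNF-like set and 0.903 to 0.931 in the IFN-gamma+TNF-like set. Scaled by total UMIs instead, the median of all tested genes was -0.08 in the TNF-like against the unstimulated-like set, -0.18 in the IFN-gamma+TNF-like against the TNF-like set and -0.24 in the IFN-gamma+TNF-like against the unstimulated-like set, in log2. Changes below are relative to the typical gene, and the levels per 10000 are relative to all UMIs.

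With TMM, the share of members called lay below the share of all genes called in each comparison, a difference that was not tested. In the TNF-like against the unstimulated-like set, 2 of 87 members were called (edgeR's quasi-likelihood test, Benjamini-Hochberg adjusted p below 0.05), both higher, where 11.1% of all genes were called (7.41% higher, 3.69% lower). For the IFN-gamma+TNF-like against the TNF-like set it was 3 of 87, all higher, with 18.2% of all genes called (11.1% higher, 7.15% lower). For the IFN-gamma+TNF-like against the unstimulated-like set it was 21 of 87, 16 higher and 5 lower, with 35.9% of all genes called (19.0% higher, 16.9% lower). The median absolute log2 fold change of members was 0.05, 0.06 and 0.10 in the 3 comparisons, against 0.15, 0.20 and 0.29 over all tested genes. These comparisons share samples and are not independent.

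Scaled by total UMIs, the balance turned. In the first comparison 4 members were called (1 higher, 3 lower), where 11.5% of all genes were called (5.88% higher, 5.66% lower). In the second it was 11 (1 higher, 10 lower), with 27.2% of all genes called (7.95% higher, 19.3% lower). In the third 41 of 87 members were called (47.1%; 2 higher, 39 lower), near the share of all genes on that scale, 48.7% (11.9% higher, 36.7% lower). That pooled share mixes unlike groups, as all 41 were among the 74 tested nuclear members and 0 of 13 mitochondrially encoded ones were called. Lower calls were a larger share of the nuclear members than of all genes, and higher calls a smaller one. In the third, calls of all tested genes were then 24.5% higher, against 53.0% with TMM. On that scale of all UMIs, the levels of 4 of the 87 members did not overlap between the sets of the first comparison, where 8.12% of all genes did not overlap. Of the 13 in the second comparison, 1 was higher in the IFN-gamma+TNF-like set (5.74% of all genes) and 12 lower (9.22%). In the third it was 25 members, 28.7% of them, near the 28.4% of all genes, 2 higher (8.63%) and 23 lower (19.8%).

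**Figure D3:**
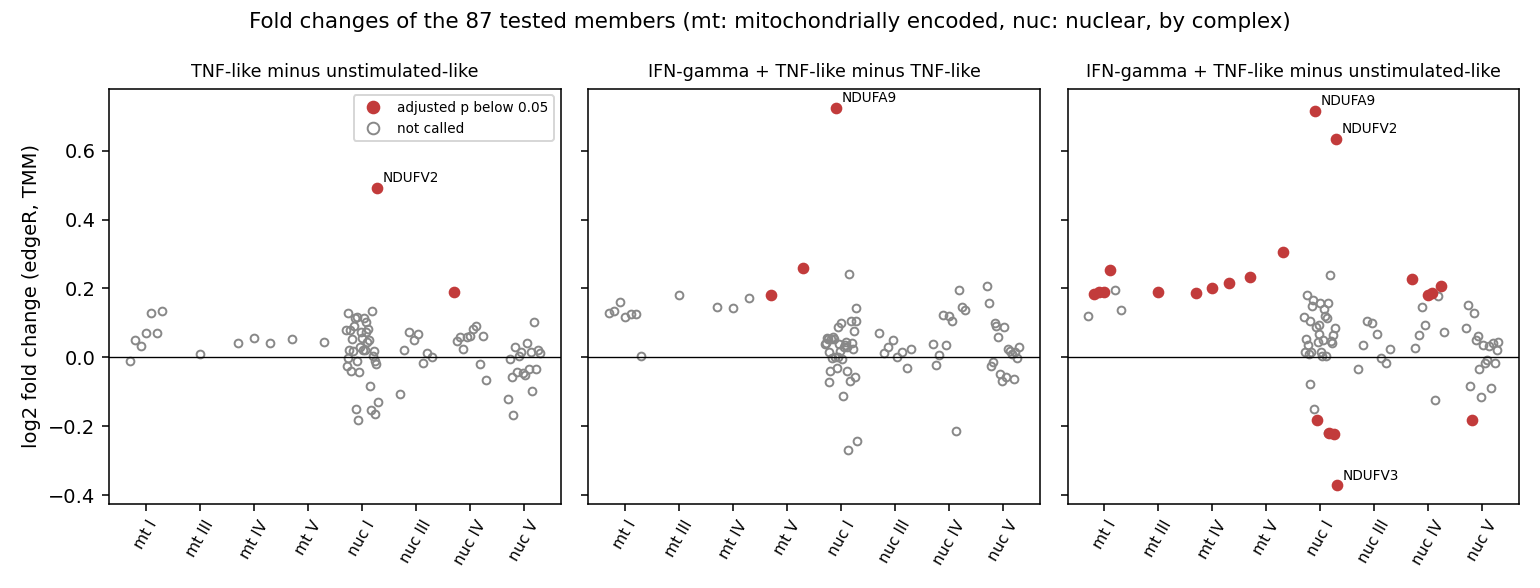
Log2 fold change (edgeR, TMM) of the 87 tested members in the 3 comparisons, by genome and complex, with called genes filled. NDUFV2, NDUFA9 and NDUFV3 stand apart from members that otherwise lie near 0, and the mitochondrially encoded genes lie slightly above 0 in the third panel.

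The mitochondrially encoded genes rose relative to the typical gene, not as a share of all UMIs. In the TNF-like against the unstimulated-like set 0 of 13 were called by edgeR, DESeq2 or limma voom, and 0 had an unadjusted p below 0.05. In the IFN-gamma+TNF-like against the TNF-like set MT-ATP6 (log2 fold change 0.18, SE 0.06, edgeR adjusted p = 0.042) and MT-ATP8 (0.26, SE 0.09, edgeR adjusted p = 0.033) were called, against 0 of 13 with DESeq2 and 4 of 13 with limma voom. The MT-ATP6 call was lost in 9 of 28 alternatives. The MT-ATP8 call was lost in 14, among them the first hashtag of each pair as a covariate (0.23, edgeR adjusted p = 0.058). In the IFN-gamma+TNF-like against the unstimulated-like set 10 of 13 were called higher by edgeR, 7 by DESeq2 and 10 by limma voom, with a median log2 fold change of 0.19. By edgeR, 19.0% of all genes were called higher there. Under total UMIs 0 of 13 were called by edgeR in any comparison, 0 had an unadjusted p below 0.05, and the median was -0.03.

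The complex V subunits MT-ATP8 (0.30, SE 0.09) and MT-ATP6 (0.23, SE 0.06) and the complex I subunit MT-ND4L (0.25, SE 0.08) had the largest log2 fold changes of the 13 with TMM. Differences between the 13 genes were not tested, and each of these subunits overlaps another mitochondrially encoded gene on the same strand. The complex IV core subunits MT-CO3 (0.22), MT-CO2 (0.20) and MT-CO1 (0.19) lay with MT-CYB, MT-ND2, MT-ND3 and MT-ND4 (0.18 to 0.19). MT-ND5 (0.20, edgeR adjusted p = 0.053), MT-ND6 (0.14, edgeR adjusted p = 0.34) and MT-ND1 (0.12, edgeR adjusted p = 0.19) were not called. MT-CYB lost its call in 17 of 28 alternatives, among them DESeq2 and the first hashtag as a covariate (0.16, edgeR adjusted p = 0.061). The MT-ND2 call was lost in 10, those of MT-ND3 and MT-ND4 in 7, of MT-CO1 in 5 and of MT-ATP8 in 3. Those of MT-ATP6, MT-CO2, MT-CO3 and MT-ND4L were lost in 2. On all UMIs, MT-CO1 read 182, 184, 189, 191 and 199 per 10000 in the unstimulated-like set and 180, 203, 177, 186 and 179 in the IFN-gamma+TNF-like set. These levels overlapped. With cells limited to at most 10% mitochondrial UMIs, 0 of 13 were called. Samples then held 9 to 110 cells, and calls of all genes fell from 1832 higher and 1627 lower to 604 and 439. Leaving out 1 hashed sample gave 5 to 12 of 13 called, the lowest without HTO2+HTO5 or HTO2+HTO8.

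**Figure D4:**
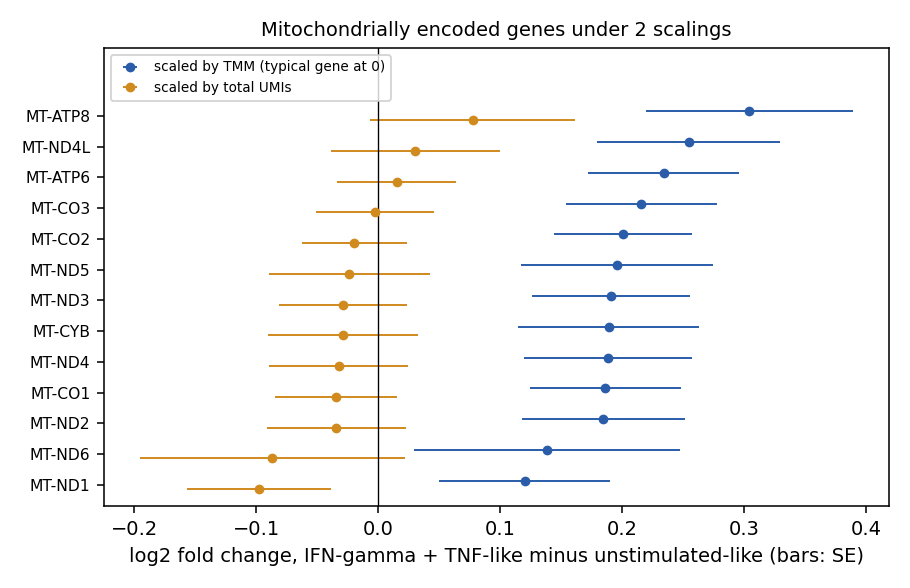
Log2 fold change with SE of the 13 mitochondrially encoded genes, IFN-gamma+TNF-like minus unstimulated-like set, scaled by TMM (blue) and by total UMIs (orange). All 13 lie above 0 with TMM, from 0.12 to 0.30, and around 0 under total UMIs.

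With TMM, complex I held the largest nuclear changes, in single subunits rather than the whole complex. NDUFV2 (chr18:9102630-9134345, plus strand, in GRCh38 by GENCODE 29, whose release may differ from the authors' annotation) encodes an iron-sulfur subunit of the NADH-oxidising module. Its level was 4.22, 4.10, 3.89, 4.69 and 4.56 per 10000 in the unstimulated-like set, 5.70, 5.71, 4.59, 6.77 and 5.81 in the TNF-like set, and 5.64, 6.53, 4.75, 5.28 and 6.35 in the IFN-gamma+TNF-like set. All 5 samples of the last set lay above all unstimulated-like samples, and only HTO3+HTO5 kept the TNF-like set from doing so.

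NDUFV2 rose by 0.49 (SE 0.09) on the log2 scale in the TNF-like against the unstimulated-like set (edgeR adjusted p = 0.00038). It rose by 0.63 (SE 0.09) in the IFN-gamma+TNF-like against the unstimulated-like set (edgeR adjusted p = 3.8e-06). Between the cytokine-like sets the difference was 0.14 (SE 0.09, edgeR adjusted p = 0.32). The second of these was called in all 28 alternative analyses and the first in 27 of 28. NDUFV2-AS1, an RNA on the opposite strand, had 157 UMIs against 21173 for NDUFV2.

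NDUFA9 (chr12:4649095-4694317, plus strand), a subunit at the joint of the peripheral and membrane arms of complex I, followed the other pattern. Its level was 0.408, 0.467, 0.397, 0.350 and 0.431 per 10000 in the unstimulated-like set, 0.348, 0.377, 0.533, 0.415 and 0.348 in the TNF-like set, and 0.537, 0.561, 0.540, 0.681 and 0.574 in the IFN-gamma+TNF-like set. The last set lay above all other samples, and the first 2 sets overlapped. NDUFA9 rose by 0.72 (SE 0.12) on the log2 scale against the TNF-like set (edgeR adjusted p = 4.7e-05) and by 0.72 (SE 0.12) against the unstimulated-like set (edgeR adjusted p = 2.5e-05). TNF-like against unstimulated-like samples gave -0.01 (SE 0.12, edgeR adjusted p = 0.99). In thinned cells a median of 26.4% held a UMI of NDUFA9 in the IFN-gamma+TNF-like set, 17.9% in the TNF-like set and 21.9% in the unstimulated-like set (unthinned, 47.2%, 36.1% and 38.5%).

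Of the 37 tested nuclear genes of complex I, 4 fell in the IFN-gamma+TNF-like against the unstimulated-like set, where 16.9% of all genes were lower. NDUFV3, an accessory subunit of the NADH-oxidising module, lay at 0.746, 0.745, 0.705, 0.664 and 0.640 per 10000 in the unstimulated-like set, at 0.526 to 0.773 in the TNF-like set and at 0.518, 0.459, 0.509, 0.434 and 0.347 in the IFN-gamma+TNF-like set. The last set lay below all other samples. NDUFV3 fell by 0.37 (SE 0.11) on the log2 scale (edgeR adjusted p = 0.0097), and the call was lost in 1 of 28 alternatives. NDUFS8, a core iron-sulfur subunit, fell by 0.22 (SE 0.07, edgeR adjusted p = 0.014). NDUFS3, a core subunit of the quinone-binding module, fell by 0.22 (SE 0.09, edgeR adjusted p = 0.048), and NDUFB10, an accessory subunit of the membrane arm, fell by 0.18 (SE 0.07, edgeR adjusted p = 0.049). The NDUFS3 and NDUFB10 calls were lost in 16 and 15 of 28 alternatives. The median of the 37 genes was 0.05, and under total UMIs 2 were called higher and 18 lower, where 11.9% and 36.7% of all genes were.

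In complex IV, COX4I1, COX7C, COX7A2 and COX6C were called higher in the IFN-gamma+TNF-like against the unstimulated-like set, of 11 tested nuclear genes. These 36.4% stand beside 35.9% of all genes called in either direction and 19.0% called higher. COX4I1 encodes the common form of subunit 4, a regulatory subunit, and rose by 0.23 (SE 0.06, edgeR adjusted p = 0.0047) relative to the typical gene, but by 0.01 under total UMIs, where the call was lost. Its level was 4.84, 4.72, 5.29, 4.85 and 5.19 per 10000 in the unstimulated-like set, 5.22, 5.57, 5.48, 5.25 and 5.55 in the TNF-like set, and 4.94, 4.83, 5.12, 5.02 and 5.18 in the IFN-gamma+TNF-like set. The TNF-like samples lay above the IFN-gamma+TNF-like ones, while the outer sets overlapped. In the TNF-like against the unstimulated-like set COX4I1 rose by 0.19 (SE 0.06, edgeR adjusted p = 0.045), a call lost in 20 of 28 alternatives. COX7C, COX7A2 and COX6C, small accessory subunits, rose by 0.21, 0.19 and 0.18 with TMM (edgeR adjusted p = 0.027, 0.022 and 0.032) and stood at -0.02, -0.04 and -0.04 under total UMIs.

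Complex III and complex V had 1 call with TMM. In complex III 0 of 8 tested nuclear genes were called in any comparison by edgeR, DESeq2 or limma voom, and 0 had an unadjusted p below 0.05, with a median of 0.03 in the IFN-gamma+TNF-like against the unstimulated-like set. Under total UMIs, 5 of 8 were called lower in that comparison, where 36.7% of all genes were. In complex V 1 of 18 was called in the same comparison with TMM, where 35.9% of all genes were. This was ATP5F1D, the delta subunit of the rotor stalk, which fell by 0.18 (SE 0.06, edgeR adjusted p = 0.025), a call lost in 6 of 28 alternatives. Under total UMIs 13 of 18 were called lower, against 36.7% of all genes. The level of ATP5F1D lay at 4.42 to 4.84 per 10000 in the unstimulated-like set, 3.71 to 4.07 in the TNF-like set and 3.15 to 3.60 in the IFN-gamma+TNF-like set, with no overlap. ATP5IF1, the inhibitor of ATP synthase running in reverse, had a log2 difference of 0.05 (edgeR adjusted p = 0.69).

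C15orf48 (chr15:45430529-45448761, plus strand) encodes a paralog of NDUFA4 that can take its place in complex IV and whose transcript also carries a microRNA, miR-147b. It lay outside the name rule and was listed as an isoform. Its level was 0.0800, 0.0858, 0.220, 0.0771 and 0.248 per 10000 in the unstimulated-like set, 0.520, 0.436, 0.567, 1.07 and 0.584 in the TNF-like set, and 0.368, 0.797, 0.432, 0.365 and 0.240 in the IFN-gamma+TNF-like set. Each TNF-like sample exceeded each unstimulated-like one. In the IFN-gamma+TNF-like set, HTO4+HTO9 lay below the highest unstimulated-like sample, HTO4+HTO10.

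C15orf48 rose by 2.34 (SE 0.45, edgeR adjusted p = 0.0037) in the TNF-like and by 1.99 (SE 0.47, edgeR adjusted p = 0.0047) in the IFN-gamma+TNF-like against the unstimulated-like set, both called in all 28 alternatives. Between the cytokine-like sets the difference was -0.34 (SE 0.39, edgeR adjusted p = 0.63). NDUFA4 itself gave 0.05 (SE 0.06, edgeR adjusted p = 0.70) and 0.11 (SE 0.06, edgeR adjusted p = 0.19), with 6.53 to 7.76 per 10000 over all samples. Per 100 UMIs of NDUFA4 there were 1.03 to 3.23 UMIs of C15orf48 in the unstimulated-like set, 5.85 to 13.8 in the TNF-like set and 3.30 to 11.5 in the IFN-gamma+TNF-like set. The paralog thus stayed the minor form in these transcripts. Among thinned cells a median of 4.10%, 16.9% and 12.6% held a C15orf48 UMI in the 3 sets (unthinned, 8.88%, 28.6% and 23.9%), while CD3D was seen in 0 of 2928.

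The other members of the isoform list moved little. Of its 12 tested genes, C15orf48, COX4I1 and COX7A2 were called in the IFN-gamma+TNF-like against the unstimulated-like set (25%, against 35.9% of all genes). COX6A1 (0.15), COX6B1 (0.09), COX7B (0.18), COX8A (0.07), COX7A2L, a supercomplex factor (-0.12), and the hypoxia-induced proteins HIGD1A (0.04) and HIGD2A (0.08) were not called. UCP2, a mitochondrial carrier, had 44 UMIs and was not tested.

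Complex II, which has no mitochondrially encoded subunit and is also an enzyme of the TCA cycle, differed through 1 of its 4 subunits. SDHA (chr5:218241-256700, plus strand), the flavoprotein that oxidises succinate, lay at 0.653, 0.670, 0.540, 0.676 and 0.684 per 10000 in the unstimulated-like set, 0.673, 0.759, 0.670, 0.640 and 0.657 in the TNF-like set, and 0.972, 0.912, 1.03, 1.10 and 1.28 in the IFN-gamma+TNF-like set. The last set lay above all other samples. SDHA rose by 0.90 (SE 0.09, edgeR adjusted p = 1.3e-08) against the unstimulated-like set and by 0.77 (SE 0.09, edgeR adjusted p = 4.0e-07) against the TNF-like set, in all 28 alternatives. SDHB (-0.01), SDHC (0.22) and SDHD (0.02) were not called against the unstimulated-like set. SDHA has pseudogene copies, so reads may be shared.

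Of the carriers and shared subunits, CYCS, the electron carrier cytochrome c, rose by 0.26 with TMM (SE 0.07, edgeR adjusted p = 0.0075) in the IFN-gamma+TNF-like against the unstimulated-like set, but stood at 0.04 under total UMIs, where the call was lost. CYC1, the cytochrome c1 of complex III, gave 0.11 and was not called.

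Assembly factors changed in both directions. Of 45 tested, 3 were higher and 11 lower in the IFN-gamma+TNF-like against the unstimulated-like set, with a median log2 fold change of -0.06. The share called, 31.1%, was near the 35.9% of all genes. Under total UMIs 2 were higher and 20 lower, where 11.9% and 36.7% of all genes were. The 3 higher ones, COX17, SCO1 and SCO2, are known to deliver copper to complex IV. COX17, the copper chaperone of the intermembrane space, lay at 0.945, 0.831, 0.749, 0.783 and 0.823 per 10000 in the unstimulated-like set, 0.880, 0.916, 0.996, 1.00 and 1.02 in the TNF-like set, and 1.12, 1.22, 1.13, 1.35 and 1.35 in the IFN-gamma+TNF-like set. The last set lay above all other samples.

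COX17 rose by 0.78 (SE 0.09, edgeR adjusted p = 5.1e-08) against the unstimulated-like set and by 0.51 (SE 0.09, edgeR adjusted p = 8.2e-05) against the TNF-like set, in all 28 alternatives. Its rise of 0.27 in the TNF-like against the unstimulated-like set (edgeR adjusted p = 0.047) was lost in 24 of 28. SCO1, which passes copper on, rose by 0.72 (SE 0.12, edgeR adjusted p = 2.2e-05), and SCO2, its paralog, by 0.46 (SE 0.11, edgeR adjusted p = 0.0016). SCO2 overlaps TYMP on the same strand in GENCODE 29, and TYMP rose by 1.77 (SE 0.13, edgeR adjusted p = 4.2e-11), so the SCO2 value is uncertain. COX17 likewise overlaps POPDC2, which was too low to test.

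On the falling side stood factors of several complexes. SDHAF1, which helps insert iron-sulfur clusters into complex II, lay at 0.129 to 0.237 per 10000 in the unstimulated-like set and 0.0534 to 0.0771 in the IFN-gamma+TNF-like set. It fell by 1.23 (SE 0.22, edgeR adjusted p = 5.1e-05), while SDHA rose. PET117 and COA7, complex IV factors, fell by 0.84 and 0.77, NDUFAF6, a complex I factor, by 0.67, and TMEM70, a complex V and I factor, by 0.60, with edgeR adjusted p from 0.00032 to 0.0086.

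**Figure D5:**
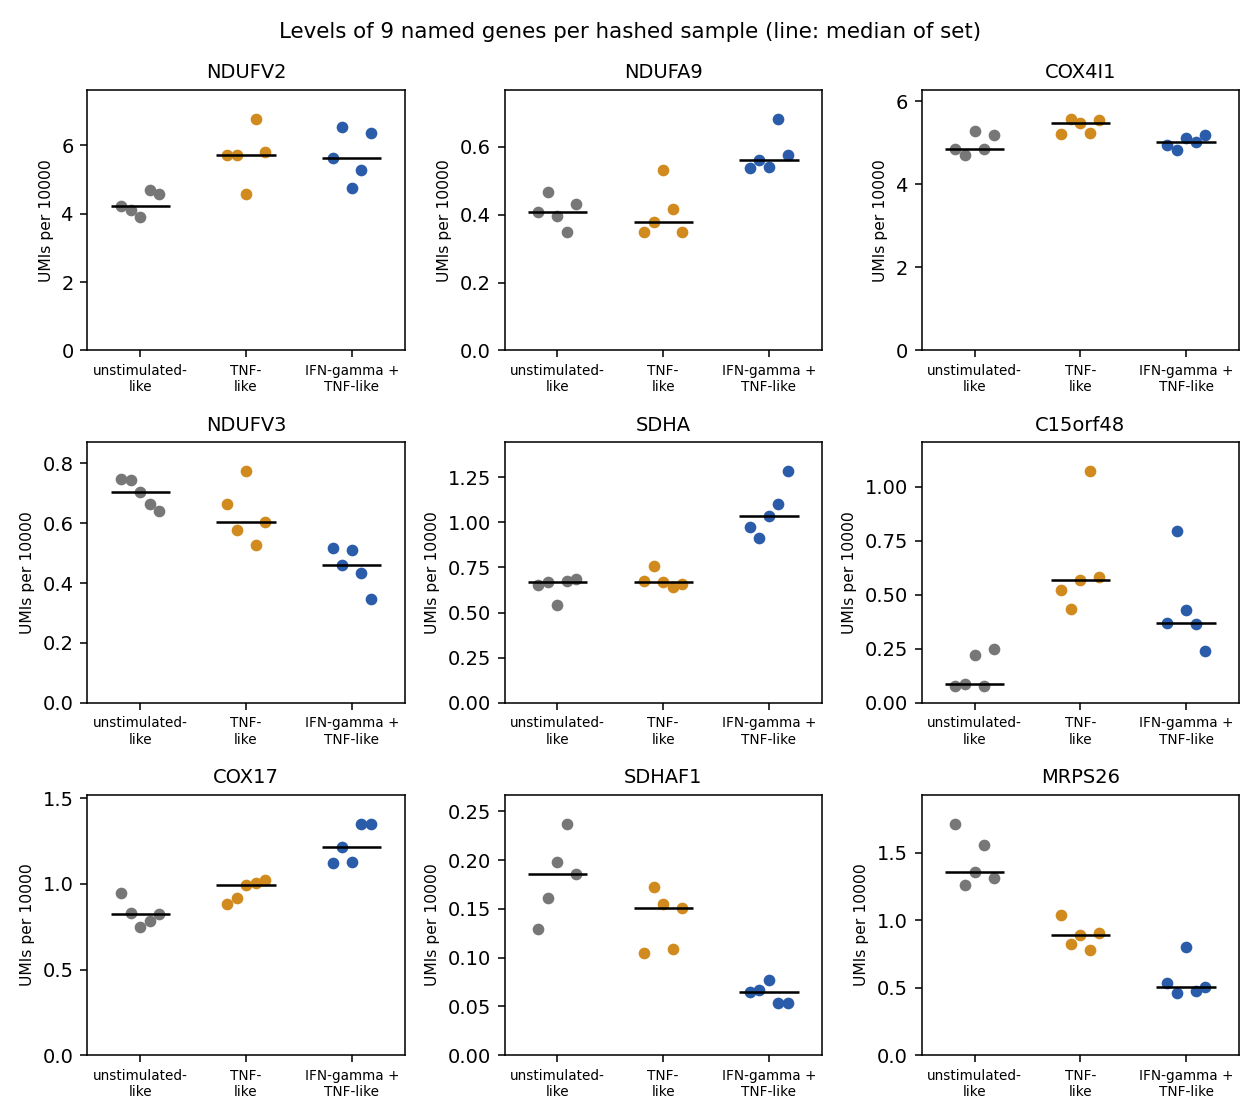
Level in UMIs per 10000 of 9 genes, 1 point per hashed sample in 3 inferred sets, with the median as a line and axes from 0. NDUFV2 and C15orf48 are already high in the TNF-like set, NDUFA9, SDHA and COX17 are highest in the IFN-gamma+TNF-like set, and NDUFV3, SDHAF1 and MRPS26 are lowest there.

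Among genes that copy and express mitochondrial DNA, the share called was near that of all genes. Of 21 tested, 1 was higher and 6 lower in the IFN-gamma+TNF-like against the unstimulated-like set, with a median log2 fold change of -0.16. These 33.3% stand beside 35.9% of all genes. Under total UMIs 0 were higher and 11 lower, where 36.7% of all genes were lower. TFAM, which packages mitochondrial DNA and starts its transcription, lay at 1.38 to 1.53 per 10000 in the unstimulated-like set, 1.12 to 1.46 in the TNF-like set and 0.655 to 1.11 in the IFN-gamma+TNF-like set. It fell by 0.42 (SE 0.10, edgeR adjusted p = 0.0012). The mitochondrial RNA polymerase POLRMT fell by 0.79 (edgeR adjusted p = 0.014), the transcription factors TFB2M and TFB1M by 0.77 and 0.55, and POLG2, the accessory subunit of the DNA polymerase, by 1.47 (edgeR adjusted p = 8.8e-05). The TFB1M call was lost in 8 of 27 alternatives, DESeq2 among them. FASTKD2, an RNA-binding protein of mitochondrial ribosome assembly, rose by 0.40 with TMM, a call lost under total UMIs (0.17).

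Most calls among mitochondrial ribosomal protein genes were lower. The share called lay below that of all genes with TMM but above it under total UMIs. Of 78 tested, 3 were higher and 20 lower in the IFN-gamma+TNF-like against the unstimulated-like set, with a median log2 fold change of -0.09. These 29.5% stand beside 35.9% of all genes (16.9% lower). Under total UMIs 2 were higher and 47 lower, where 48.7% of all genes were called (11.9% higher, 36.7% lower). MRPS26, of the small subunit, lay at 1.27 to 1.72 per 10000 in the unstimulated-like set, 0.780 to 1.04 in the TNF-like set and 0.462 to 0.802 in the IFN-gamma+TNF-like set. It fell by 0.64 in the TNF-like (edgeR adjusted p = 9.6e-05) and by 1.22 in the IFN-gamma+TNF-like against the unstimulated-like set (edgeR adjusted p = 1.7e-09), in all 28 alternatives. MRPL34, of the large subunit, fell by 0.92 (SE 0.13, edgeR adjusted p = 1.1e-06), while MRPL14 rose by 0.50 (SE 0.07, edgeR adjusted p = 7.0e-07). MRPS34, MRPL19 and MRPL35 fell by 0.74, 0.74 and 0.70 (edgeR adjusted p = 0.00015, 2.3e-05 and 0.00013), and MRPL30 fell by 0.80 (edgeR adjusted p = 0.041), a call lost in 11 of 27 alternatives.

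Other genes of the ribosome and assembly lists were called against the TNF-like set. There MRPL32 and MRPL44, of the large ribosomal subunit, rose by 0.50 and 0.47 (edgeR adjusted p = 0.00080 and 0.027), MRPL19 fell by 0.46 (edgeR adjusted p = 0.0096), and MRPS27 fell by 0.52 (edgeR adjusted p = 0.041), a call lost in 17 of 27 alternatives. TTC19, an assembly factor of complex III, fell by 0.41 (edgeR adjusted p = 0.011), and TMEM126B, one of complex I, rose by 0.33 (edgeR adjusted p = 0.018). Under total UMIs the calls of MRPL44 (0.31) and TMEM126B (0.18) were lost. In the TNF-like against the unstimulated-like set MRPL16 and MRPS34 fell by 0.39 and 0.41 (edgeR adjusted p = 0.021 and 0.043), and the MRPS34 call was lost in 12 of 28 alternatives.

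Regulators of mitochondrial biogenesis split. Of 9 tested, 2 rose and 4 fell in the IFN-gamma+TNF-like against the unstimulated-like set (66.7% called, against 35.9% of all genes). Under total UMIs 2 rose and 5 fell, where 11.9% and 36.7% of all genes did. The difference from all genes was not tested. PPARGC1B, a coactivator of mitochondrial genes, fell by 1.38 (SE 0.29, edgeR adjusted p = 0.00047), and ESRRA, the nuclear receptor it works with, fell by 0.75 (SE 0.11, edgeR adjusted p = 5.0e-06). MYC fell by 0.95 (edgeR adjusted p = 0.048), a call lost in 18 of 28 alternatives, and YY1 by 0.30 (edgeR adjusted p = 0.0020). NFE2L2, which drives antioxidant genes, rose by 1.08 (SE 0.11, edgeR adjusted p = 1.3e-08), and GABPB1, a subunit of an ETS factor known to act on these genes, rose by 0.87 (SE 0.18, edgeR adjusted p = 0.00029). In the TNF-like against the unstimulated-like set NFE2L2 had risen by 0.70 (edgeR adjusted p = 3.8e-05) and PPARGC1B had fallen by 0.77 (edgeR adjusted p = 0.044). The latter call was lost in 12 of 27 alternatives, among them the first hashtag as a covariate (-0.59, edgeR adjusted p = 0.17).

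In the TCA cycle and the pyruvate dehydrogenase complex that feeds it, 3 of 17 genes were called with TMM in the IFN-gamma+TNF-like against the unstimulated-like set, all 3 of pyruvate dehydrogenase. These 17.6% stand beside 35.9% of all genes. Under total UMIs 0 were higher and 5 lower, where 11.9% and 36.7% of all genes were, so genes beyond these 3 were then called. DLAT, the acetyltransferase of pyruvate dehydrogenase, fell by 1.10 with TMM (SE 0.18, edgeR adjusted p = 1.9e-05). PDHB, the beta subunit of the first enzyme of that complex, fell by 0.60 (SE 0.13, edgeR adjusted p = 0.00056). PDHA1, the alpha subunit, rose by 0.26 with TMM (SE 0.10, edgeR adjusted p = 0.037) but stood at 0.03 under total UMIs, not called. The PDHA1 call was lost in 14 of 28 alternatives.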

How the data were processed

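Per the file headers, the authors deposited raw UMI counts per gene and hashtag in a matrix from Cell Ranger 5.0.1. Version 2.1.1 of the same tool, and the build GRCh38, are named in the submitters' processing notes, so the version is uncertain. Barcode calling and strand use in counting were not stated in the sources used.

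Cells had at least 1000 genes and at most 20% MT- counts. A cell was placed by its 2 top hashtags when the second reached 10 counts and 3 times the count of the next. Counts were summed per pair into 15 hashed samples, in 3 inferred sets that no label gives. Nothing in the labels ties hashtags to tumours, and doublets of 2 cells from the same hashed sample were not removed. Levels are counts per 10000 UMIs. Fits used edgeR 4.0.16 (TMM, filterByExpr, robust quasi-likelihood test) in R 4.3.3 over all samples, with Benjamini-Hochberg adjustment over 9636 genes and a threshold of 0.05. The fit was tested on counts simulated for the TNF-like against the unstimulated-like comparison only. It recovered 33 of 50 genes changed 1.5-fold, 35 of 50 changed 2-fold, and 50 of 50 at 4-fold and at 8-fold. It called 12 of 9436 unchanged genes, and changes smaller than 1.5-fold were not simulated. For shares of cells with a UMI, thinning to 5000 UMIs kept 2928 cells and left out 216. Intervals are exact at 95% and cover counting error only.

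Members, sets and lists were chosen with earlier results of these data known. Named are all mitochondrially encoded members, up to 10 called nuclear members per direction and comparison by fold change, all listed isoforms, and up to 6 called genes of each other list and comparison. A few genes named in one comparison are also given in the others. Alternatives were DESeq2 1.42.0, limma voom 3.58.1, other scalings, filters and cell limits, and leaving out each hashed sample. Gene positions are from GENCODE 29, and promoter sequences from RefSeq (GRCh38.p14), which held 67 of the 99 members. Further named genes, C15orf48 among them, also overlap a gene model on the same strand, and its effect on their counts was not tested. The 2 libraries are 1 pool, so that no comparison between libraries was made.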

Additional observations from a re-analysis of the deposited data

Results flagged for a closer look

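A gap test (Dixon's, for 5 values) over 222 sets of 5 levels marked 20 samples that stood away from the other 4 of their set, or 9.01% of the sets. Chance marks about 1 in 20 groups. All levels are UMIs per 10000.

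Among members, NDUFA9 was high at 0.681 in HTO4+HTO6 of the IFN-gamma+TNF-like set. In the same set HTO2+HTO7 was low for NDUFB10 at 2.31 and for MT-ND4L at 2.63, and high for MT-ND6 at 1.69. In the unstimulated-like set ATP5IF1 was low at 1.63 in HTO3+HTO7, COX7A2L was low at 1.24 in HTO4+HTO7, and MT-ATP8 was high at 1.29 in HTO4+HTO7.

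Among related genes, SDHA was low at 0.540 in HTO3+HTO7 of the unstimulated-like set and high at 0.759 in HTO2+HTO10 of the TNF-like set. C15orf48 was high at 1.07 and CYCS low at 6.05 in HTO3+HTO8 of the TNF-like set. HIGD2A at 1.65 and MRPS34 at 2.15 stood apart in HTO3+HTO5 of the TNF-like set, which held the fewest cells. In the unstimulated-like set ESRRA at 0.397 and MRPL34 at 0.540 were low in HTO3+HTO7, POLG2 at 0.136 in HTO4+HTO10 and SCO1 at 0.349 in HTO2+HTO8, while TFAM was high at 1.53 in HTO2+HTO5. In the IFN-gamma+TNF-like set MRPS26 at 0.802 and SCO2 at 1.25 were high in HTO3+HTO9.

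Cells outside the comparisons also carried these transcripts. Nuclear members made up 1.81% of UMIs in the 394 kept cells without a clear hashtag pair and 1.38% in the 1731 removed barcodes, whose mitochondrially encoded share was 32.7%. Counted against UMIs of genes other than MT- genes, the nuclear shares were 2.08% and 2.06%, beside 2.06% in the cells compared.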

How the results depend on the processing

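Of the 87 called gene results that the naming rule selects, 21 kept their call in all 28 alternatives, 6 more in the 27 that gave them a value, 51 in every analysis that left out 1 hashed sample, and 11 changed sign in at least 1. Under total counts without TMM, calls of members moved to 4, 11 and 41 in the TNF-like against unstimulated-like, IFN-gamma+TNF-like against TNF-like, and IFN-gamma+TNF-like against unstimulated-like comparisons. In the last of these, COX6C reversed to -0.0436, COX7A2 to -0.0370, COX7C to -0.0184, MT-CO1 to -0.0345, MT-CO2 to -0.0194, MT-CO3 to -0.0024, MT-CYB to -0.0287, MT-ND2 to -0.0341, MT-ND3 to -0.0288 and MT-ND4 to -0.0324, as the scale itself moves by construction. With cells of at most 10% mitochondrial UMIs, which keeps fewer cells, calls were 0, 1 and 1, and MT-ND4L reversed to -0.11. Calls of all genes fell too, to 199 higher and 47 lower in the first comparison, 345 and 114 in the second, and 604 and 439 in the third. In the first comparison 1 call was left with scaling from non-MT genes, with no filter on low counts, with a limit of 30% and with only the compared sets fitted. In the second, DESeq2 gave 1, limma voom 5, a limit of 30% 7, only the compared sets 1, and leaving out samples under 100 cells 6. The causes of these were not tested. Leaving out 1 hashed sample gave 1 to 3 calls in the first comparison, where 12 of 15 omissions left 1, 1 to 6 in the second and 12 to 23 in the third. The second fell to 1 without HTO2+HTO6, HTO2+HTO10 or HTO4+HTO9, and rose to 5 without HTO3+HTO7 or HTO2+HTO7 and to 6 without HTO3+HTO5 or HTO3+HTO8. The third fell to 13 without HTO2+HTO5 or HTO2+HTO8 and to 12 without HTO4+HTO6. The median mitochondrially encoded share moved to 7.93% with a limit of 10%, 14.6% with 30%, 15.8% with no limit and 15.3% of non-MT UMIs, and the nuclear share to 2.07% of non-MT UMIs. The median share of cells with a C15orf48 UMI was 10.2% thinned and 21.9% unthinned. No paired analysis was possible because hashtag pairs carry no replicate numbers and the 2 libraries are different assays of 1 pool. A fit with the first hashtag of each pair as a covariate, which no label ties to a tumour, left 2, 3 and 21 members called and ended 8 of the 87 gene calls: COX17, MRPS34 and PPARGC1B in the first comparison, MRPS27 and MT-ATP8 in the second, MRPL30, MT-CYB and MYC in the third. Counts of the small samples limit low genes.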
